A study of Sus scrofa with 6 samples.

Results

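PAX6, LHX2, SIX3 and SIX6 are 4 transcription factor genes of the eye field, the patch of the anterior neural plate from which both eyes form. They were taken by gene symbol from a table of 31908 pig genes because their levels separated a pair of parthenogenetic embryonic stem cell lines, PA_1 and PA_3. That choice used measured values, so the levels of these genes in PA_1 and PA_3 are given as a description and carry no test. All 4 passed the filter on low counts, which kept 15197 genes, and 3 of them (PAX6, LHX2 and SIX6) would not have passed on the PA_3 libraries alone.

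The study measured poly(A) RNA in 3 wild-type pig (Sus scrofa) embryonic stem cell lines, the labels naming the culture condition FIW. PA_1 and PA_3 derive from parthenogenetic embryos, in which an egg is activated without sperm, whereas IVF_1 derives from in vitro fertilisation. There are 2 libraries of each line, and the labels do not say whether these come from separate cultures, so p-values may measure technical spread only. With 1 fertilised line, comparisons with IVF_1 set lines side by side and cannot address how the embryo arose.

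In vertebrate embryos, the anterior neural plate becomes an eye field when a set of transcription factors is switched on together in cells that already carry OTX2. PAX6 is a paired-domain and homeodomain factor needed for eyes, forebrain and lens, and LHX2 is a LIM-homeodomain factor needed for the optic vesicle in mouse. SIX3 and SIX6 are closely related homeodomain factors, of which SIX3 restrains WNT signalling in the forebrain in mouse and SIX6 acts in the retina, hypothalamus and pituitary.

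Library totals ran from 15248306 to 28575817 counts. Replicate libraries of a line differed by more than counting noise, so none was treated as a duplicate of another. Mitochondrial genes took 12.2% of the counts in both PA_3 libraries, against 7.67% to 9.65% in the other 4 libraries. POU5F1, which defines pluripotent cells, was present in every line, with levels of 637 ± 40.6 CPM for PA_1, 836 ± 62.9 for PA_3 and 811 ± 39.1 for IVF_1 (CPM is the count scaled to the TMM-adjusted library total, mean ± SD, n = 2 libraries, as for all CPM values here). NANOG, another pluripotency factor, was lowest in PA_3, with 10.7 CPM against 30.6 in PA_1 and 75.8 in IVF_1 (-2.83 for PA_3 against IVF_1, SE 0.13, edgeR adjusted p = 6.3e-11). It shared the direction of PAX6, LHX2 and SIX6 in the comparisons with PA_3, but unlike them it was lower in PA_1 than in IVF_1 (-1.32, SE 0.12). The part of NANOG in the levels of those genes was not tested.

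PAX6 (ENSSSCG00000013320) lies on the plus strand of chromosome 2, from 28971567 to 29001200 in build Sscrofa11.1, and the table lists 4 transcripts for it. It had 2119 and 1331 reads in the PA_1 libraries, 767 and 738 in the IVF_1 libraries, and 5 and 10 in the PA_3 libraries. In the authors' TPM, which scales by gene length and library total, the levels were 50.6 and 49.3 in PA_1, 31.3 and 32.9 in IVF_1, and 0.12 and 0.25 in PA_3. Both PA_3 libraries stood far below the other 4, and the libraries of the 3 lines did not overlap. The PA_3 level was 0.415% of that in PA_1 and 0.633% of that in IVF_1. Their 95% counting intervals were 0.232% to 0.686% and 0.354% to 1.05%, and like all such intervals here they cover counting error only.

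LHX2 (ENSSSCG00000005586), on the plus strand of chromosome 1 from 264900591 to 264920913, had 907 and 442 reads in PA_1, 366 and 333 in IVF_1, and 10 and 22 in PA_3. The TPM levels were 33.9 and 25.5 in PA_1, 23.4 and 23.3 in IVF_1, and 0.37 and 0.74 in PA_3. The PA_1 libraries differed from each other more for this gene than the IVF_1 libraries did, with 27.4 ± 4.70 against 22.0 ± 0.231 CPM. The PA_3 level was 2.27% of that in PA_1 (95% counting interval 1.54% to 3.21%) and 2.91% of that in IVF_1 (1.97% to 4.15%).

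SIX6 (ENSSSCG00000005086) lies on the plus strand of the same chromosome, from 189497815 to 189503500. It was the lowest of the 4 in every line, with 184 and 100 reads in PA_1, 87 and 80 in IVF_1, and 4 and 7 in PA_3. Its TPM was 2.53 and 2.13 in PA_1, 2.05 and 2.06 in IVF_1, and 0.05 and 0.09 in PA_3. The PA_3 level was 3.70% of that in PA_1 (95% counting interval 1.83% to 6.72%) and 4.19% of that in IVF_1 (2.05% to 7.68%). The intervals of LHX2 and SIX6 overlap, so the order of these genes by share left in PA_3 cannot be told at this depth, while that of PAX6 lies below both.

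SIX3 (ENSSSCG00000039283), on the minus strand of chromosome 3 from 95521333 to 95525436, did not share the near-absence in PA_3. It had 3194 and 1851 reads in PA_1, 1060 and 1058 in IVF_1, and 1143 and 1155 in PA_3. The TPM levels were 94.8 and 84.9 in PA_1, 53.8 and 58.8 in IVF_1, and 33.7 and 30.6 in PA_3, so PA_3 was lowest and again no libraries of different lines overlapped. PA_3 kept 43.5% of the PA_1 level (95% counting interval 41.4% to 45.7%) and 68.9% of the IVF_1 level (65.0% to 73.2%). A description of these genes as lost in PA_3 therefore held for PAX6, LHX2 and SIX6, and SIX3 was reduced.

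**Figure D1:**
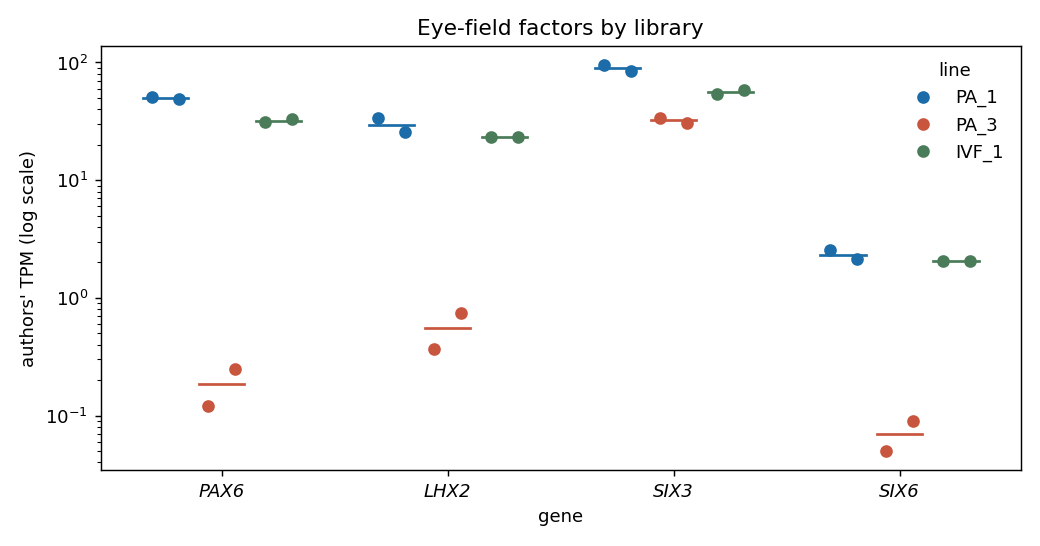
Level of each eye-field factor in the authors' TPM on a log scale, with 1 point per library and a line at the mean of the 2 libraries of each cell line. PAX6, LHX2 and SIX6 fall to between 0.05 and 0.74 TPM in PA_3, where SIX3 stays at 30.6 and 33.7.

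The fitted differences for PA_1 against PA_3 were 7.89 (SE 0.17) for PAX6, 5.42 (SE 0.21) for LHX2, 4.71 (SE 0.29) for SIX6 and 1.19 (SE 0.079) for SIX3 on the log2 scale. For PA_3 against IVF_1, which uses the same PA_3 libraries, they were -7.28 (SE 0.17), -5.09 (SE 0.22), -4.54 (SE 0.31) and -0.54 (SE 0.082) in the same order. Ranked among all 15197 genes by difference between PA_1 and PA_3, PAX6 was number 25 from the top, LHX2 57, SIX6 68 and SIX3 532. With mitochondrial genes left out, the values for PA_3 against IVF_1 were the same to the second decimal, at -7.28, -5.09, -4.54 and -0.54. In bulk RNA, fewer cells that express a gene cannot be told apart from less of its RNA per cell.

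The order of the genes by TPM was SIX3, PAX6, LHX2 and SIX6 in all 4 libraries of PA_1 and IVF_1. In both PA_3 libraries LHX2 stood above PAX6, at 0.37 against 0.12 TPM and 0.74 against 0.25 TPM. The ratio of SIX3 to PAX6 in TPM was 1.87 and 1.72 in PA_1, 1.72 and 1.79 in IVF_1, and 281 and 123 in PA_3. The ratio of LHX2 to SIX6 moved far less, with 13.4 and 11.98 in PA_1, 11.4 and 11.3 in IVF_1, and 7.40 and 8.22 in PA_3, where SIX6 rests on 4 and 7 reads. Among the tested genes ordered by TPM, PAX6 ranked 2676 and 2656 in PA_1, 4147 and 4001 in IVF_1, and 14804 and 14310 in PA_3.

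PA_1 against IVF_1 shares the PA_1 libraries with the choice of the genes, so its values are a description as well. PAX6 stood at 72.2 ± 0.523 CPM in PA_1 and 47.3 ± 1.37 in IVF_1, a log2 difference of 0.61 (SE 0.085), which ranged from 0.58 to 0.64 with each library left out in turn. SIX3 stood at 104.6 ± 5.20 and 66.7 ± 3.66 CPM, a difference of 0.65 (SE 0.079), with a range from 0.60 to 0.71. For both genes the PA_1 libraries lay above the IVF_1 libraries.

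LHX2 and SIX6 differed less between PA_1 and IVF_1. The difference in LHX2 was 0.33 (SE 0.13), and it rested on single libraries, with 0.50 without PA_1 replicate 2 and 0.13 without PA_1 replicate 1. SIX6 stood at 5.85 ± 0.555 CPM in PA_1 and 5.25 ± 0.0158 in IVF_1, a difference of 0.17 (SE 0.18) that is smaller than its standard error, although the libraries of the lines did not overlap.

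Partners of these factors in eye-field specification were partly lower in PA_3. Of 15 such genes, 14 were tested, and a gene was called at an adjusted p below 0.05 in edgeR's quasi-likelihood test with Benjamini-Hochberg adjustment over all tested genes. Against IVF_1, 8 were lower and 4 higher in PA_3, beside 52.1% of all tested genes called (25.9% higher and 26.2% lower), with a median log2 fold change of -0.39 against 0.00 for all tested genes. In PA_1 against PA_3, 7 were higher and 1 lower, beside 36.8% of all tested genes called (17.8% higher and 19.0% lower), with a median of 0.66. The latter count was 4 higher and 1 lower without PA_3 replicate 2. These comparisons share the PA_3 libraries, so their values are set side by side here and below.

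RAX, a homeodomain factor needed for eye formation, had 7.95 ± 0.749 CPM in PA_1, 6.24 ± 0.315 in IVF_1 and 2.61 ± 0.0742 in PA_3. Its log2 fold change in PA_3 was -1.26 against IVF_1 (SE 0.18, edgeR adjusted p = 2.5e-05), beside -7.28 for PAX6. NR2E1, an orphan nuclear receptor of forebrain and retinal progenitors also called TLX, had 3.03 ± 0.0368, 1.54 ± 0.0468 and 0.619 ± 0.0144 CPM in PA_1, IVF_1 and PA_3. It was lower in PA_3 than in IVF_1 (-1.31, SE 0.33, adjusted p = 0.0033) and higher in PA_1 than in IVF_1 (0.97, SE 0.26, adjusted p = 0.0093).

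EYA1 and DACH1 encode cofactors that act with SIX3 and its relatives. EYA1 fell in PA_3 to 1.07 ± 0.265 CPM from 6.28 ± 0.180 in IVF_1 (-2.54, SE 0.22, adjusted p = 9.2e-08), and DACH1 to 11.11 ± 0.336 from 26.1 ± 0.400 CPM (-1.23, SE 0.11, adjusted p = 9.5e-08). Neither was called between PA_1 and IVF_1, with -0.07 (adjusted p = 0.78) for EYA1 and 0.15 (adjusted p = 0.27) for DACH1. OTX2, which marks the anterior neural plate and is also expressed in primed pluripotent cells, went the other way. It stood at 540 ± 0.681 CPM in PA_3 and 359.8 ± 1.00 in IVF_1 (0.58, SE 0.074, adjusted p = 6.2e-06).

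SIX4 and SIX2 are relatives of SIX3 and SIX6. SIX4 stood at 83.3 ± 11.4 CPM in PA_1, 96.3 ± 6.84 in IVF_1 and 69.8 ± 0.759 in PA_3, and it was lower in PA_3 than in IVF_1 (-0.47, SE 0.089, adjusted p = 0.00038). SIX2 rested on 25, 10 and 17 reads over PA_1, IVF_1 and PA_3, and no comparison called it. In PA_1 against IVF_1, 2 of the 14 eye-field partners were higher and 1 lower, with a median of 0.25, beside 31.4% of all tested genes called (15.3% higher and 16.1% lower). That total was 1 without IVF_1 replicate 1 or without IVF_1 replicate 2, and 6 without PA_1 replicate 2.

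Genes of the optic vesicle and retina, which act after the eye field forms, moved in both directions. Of 29, 17 were tested, and 4 were higher and 6 lower in PA_3 than in IVF_1 (median -0.31). These 10 of 17 lie near the 52.1% called among all tested genes. In PA_1 against PA_3, 4 were higher and 4 lower (median 0.47), beside 36.8% of all tested genes called. PAX2 is a paired-domain factor of the optic stalk and the midbrain-hindbrain boundary. It had 195 reads over the PA_1 libraries, 108 over those of IVF_1 and 1 over those of PA_3. In PA_3 it lay under the filter cutoff of 0.47 CPM, and it passed through the other lines. Its values are therefore a description. EFNB2, a dorsal retinal ephrin, fell in PA_3 to 9.65 ± 2.56 CPM from 40.3 ± 2.53 in IVF_1 (-2.07, SE 0.14, adjusted p = 8.3e-09).

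FOXN4, a factor of amacrine and horizontal cell precursors, rose in PA_3 to 8.72 ± 0.318 CPM from 1.14 ± 0.242 in IVF_1 (2.94, SE 0.24, adjusted p = 3.9e-08). CRX, a photoreceptor factor, rose to 4.99 ± 0.108 from 1.75 ± 0.435 CPM (1.503, SE 0.26, adjusted p = 0.00013). Of all tested genes, 31.4% were called in PA_1 against IVF_1 (15.3% higher and 16.1% lower), and 6 of 17 here lie near that share. In PA_1 against IVF_1, 2 optic vesicle and retina genes were higher and 4 lower (median -0.10), and the total fell to 2 without IVF_1 replicate 1, without IVF_1 replicate 2 or without PA_1 replicate 1, and to 1 with DESeq2.

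Forebrain genes leaned lower in PA_3. Of 30, 18 were tested, and against IVF_1 11 were lower and 2 higher, with a median of -0.50. Of all tested genes, 26.2% were called lower and 25.9% higher in that comparison. In PA_1 against PA_3, 8 were higher and 2 lower, with a median of 0.42, beside 17.8% higher and 19.0% lower among all tested genes. NR2F1 and NR2F2, orphan nuclear receptors that pattern the forebrain and optic cup, were lower in PA_3 than in IVF_1. NR2F2 had a log2 fold change of -2.39 (SE 0.17, edgeR adjusted p = 9.6e-09). NR2F1 was at -4.29 (SE 0.38). With 0.198 CPM it lay under the filter cutoff in PA_3, so its value is a description.

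Other forebrain genes fell less or rose. FEZF1, a forebrain zinc finger repressor, stood at 486 ± 15.9 CPM in PA_1, 231 ± 10.1 in IVF_1 and 168 ± 26.2 in PA_3. That order of lines was also seen for PAX6, and FEZF1 was lower in PA_3 than in IVF_1 (-0.46, SE 0.086, adjusted p = 0.00035). LHX5, a LIM-homeodomain factor of the same gene family as LHX2, was higher in PA_3 than in IVF_1 (128.7 ± 1.07 against 59.8 ± 0.698 CPM, 1.11, SE 0.073, adjusted p = 2.9e-09). LMX1A, a LIM-homeodomain factor of the roof plate and ventral midbrain, was higher as well (9.61 ± 0.182 against 3.44 ± 0.683 CPM, 1.48, SE 0.18, adjusted p = 3.2e-06). Of all tested genes 31.4% were called in PA_1 against IVF_1, where 6 of 18 forebrain genes were higher and 4 lower (median 0.01). That total was 4 without IVF_1 replicate 1 or without IVF_1 replicate 2, and 5 with DESeq2.

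Broader neural plate and progenitor genes did not fall with PAX6, LHX2 and SIX6 as a group. Of 33 such genes 30 were matched in the table and 21 tested. Of these, 12 were higher and 4 lower in PA_3 than in IVF_1 (median 0.35), beside 52.1% of all tested genes called. In PA_1 against IVF_1, 13 were higher and 2 lower (median 0.53), beside 31.4% of all tested genes called. Beside 36.8% called in PA_1 against PA_3, 8 were higher and 6 lower (median 0.08). Without PA_3 replicate 2 the last count was 5 higher and 4 lower. NCAM1, a neural adhesion molecule, had a level of 46.7 ± 1.86 CPM in IVF_1, 83.1 ± 0.816 in PA_1 and 101.3 ± 5.20 in PA_3.

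NCAM1 rose in PA_3 against IVF_1 (1.12, SE 0.077, adjusted p = 5.2e-09). IRX2, an Iroquois factor of more posterior neural plate, also rose in PA_3, to 20.5 ± 0.115 CPM from 4.97 ± 0.280 (2.05, SE 0.13, adjusted p = 2.3e-09). FABP7, a fatty acid binding protein of radial glia, fell from 7.07 ± 0.176 CPM to 0.337 ± 0.0615 (-4.36, SE 0.27). LIX1 fell from 2.55 ± 0.277 CPM to 0.240 ± 0.0165 (-3.38, SE 0.35). Both lay under the filter cutoff in PA_3 and passed through the other lines, so their values are a description.

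**Figure D2:**
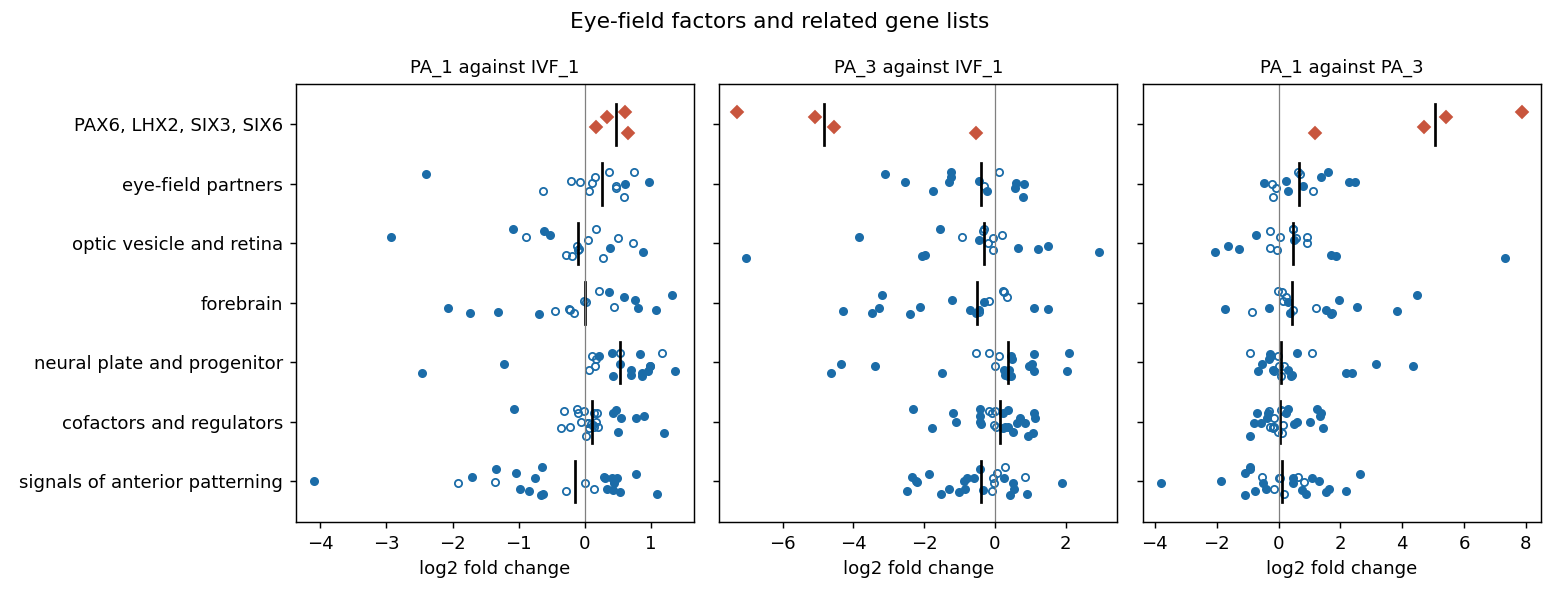
Log2 fold change of the 4 eye-field factors (red) and of the tested genes of 6 related lists (blue) in each comparison of lines, with a black bar at each median. Filled circles passed the adjusted p threshold and open circles did not, while red diamonds carry no test because the genes were chosen on PA_1 and PA_3. PAX6 lies at -7.28 in PA_3 against IVF_1 and PAX2 at the far left of the optic vesicle genes, while the medians of the 6 lists in that comparison lie between -0.50 and 0.35.

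Genes whose products bind or regulate these factors changed in both directions in PA_3. Of 26 tested cofactors and regulators, 13 were higher and 8 lower in PA_3 than in IVF_1 (median 0.13), PA_1 exceeded IVF_1 at 7 and was below it at 1 (median 0.11), while PA_1 exceeded PA_3 at 9 and was below it at 6 (median 0.03). The shares called among all tested genes were 52.1%, 31.4% and 36.8% in the same comparisons, and 8 of 26 for PA_1 against IVF_1 lies near its share. Without PA_1 replicate 2, the count for PA_1 against IVF_1 was 12 higher and 2 lower. TLE4, a Groucho corepressor of the kind SIX3 and SIX6 recruit, fell in PA_3 to 32.5 ± 0.179 CPM from 74.0 ± 4.56 in IVF_1 (-1.19, SE 0.081, adjusted p = 5e-09). MEIS1, a homeodomain factor that activates PAX6 in the mouse lens, fell to 2.63 ± 0.101 from 9.11 ± 1.04 CPM (-1.79, SE 0.17, adjusted p = 2.5e-07). LMO3, a LIM-only protein, followed the order of lines seen for PAX6, at 63.0 ± 10.3 CPM in PA_1, 33.6 ± 2.07 in IVF_1 and 24.9 ± 1.71 in PA_3.

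Signals that pattern the anterior neural plate leaned lower in PA_3 than in IVF_1. Of 26 tested genes 14 were lower and 6 higher (median -0.39), beside 52.1% of all tested genes called (25.9% higher and 26.2% lower). In PA_1 against PA_3, 10 were higher and 9 lower (median 0.12). Of all tested genes, 36.8% were called in that comparison and 31.4% in PA_1 against IVF_1. GLI3, a transducer of hedgehog signals, had 92.9 ± 7.29 CPM in PA_1, 64.5 ± 0.920 in IVF_1 and 32.02 ± 2.798 in PA_3 (-1.01 for PA_3 against IVF_1, SE 0.088, adjusted p = 9e-08). The hedgehog pathway genes SHH, PTCH1 and GLI1 of the same list went the other way. They were called higher in PA_3 than in IVF_1, at 1.89, 0.55 and 0.43. The secreted WNT antagonists FRZB and SFRP2 were lower in PA_3 than in IVF_1, with log2 fold changes of -0.59 (SE 0.081, adjusted p = 1.4e-05) and -0.35 (SE 0.072, adjusted p = 0.00075). SFRP1, more abundant than either, was not called, at 401 CPM in PA_3 and 405 in IVF_1 (edgeR adjusted p = 0.87). NODAL, a signal whose restraint permits anterior neural fate in mouse, was also lower in PA_3, at 1.43 ± 0.354 against 8.03 ± 0.526 CPM (-2.48, SE 0.20, adjusted p = 4.7e-08). In PA_1 against IVF_1, 9 were higher and 10 lower (median -0.14), and without IVF_1 replicate 1 the counts were 7 and 5.

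Markers of other cell types were read beside these results. The 10 neuron markers summed to between 599 and 628 CPM in PA_3, between 518 and 628 in PA_1 and between 415 and 429 in IVF_1. None of them was at or near 0 in every library, and all 10 were called in PA_3 against IVF_1, 6 higher and 4 lower, beside 52.1% of all tested genes. For PA_1 against PA_3, 3 were higher and 3 lower (median -0.12), beside 36.8% of all tested genes called. STMN2, a microtubule regulator of neurons, had 107 ± 3.69 CPM in PA_1 and 121 ± 19.4 in PA_3 against 30.0 ± 0.490 in IVF_1. Its log2 fold change for PA_1 against PA_3 was -0.18 (SE 0.090, adjusted p = 0.13). DCX, a microtubule protein of young neurons, and INA, a neuronal intermediate filament protein, were higher in PA_1 than in PA_3, as PAX6 was. Their log2 fold changes were 2.13 (SE 0.26, adjusted p = 6.9e-06) and 1.29 (SE 0.17, adjusted p = 1.4e-05). The 3 markers lower in PA_1 were NEFM at -0.63 (adjusted p = 0.012), ELAVL3 at -0.46 (adjusted p = 0.012) and ELAVL4 at -0.72 (adjusted p = 0.0043). TUBB3, a neuronal tubulin, had 318 ± 11.8 CPM in IVF_1, 360.1 ± 61.3 in PA_1 and 401 ± 5.75 in PA_3. The part of neuron-marker differences in the levels of the eye-field factors was not tested.

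PAX6 is also a lens and pancreatic factor, so lens and endoderm markers were read too. Of 12 lens and placode markers, FOXE3, PITX3, CRYAA and CRYBB2 had at most 1 read in every library, and the list summed to between 39.6 and 41.4 CPM in PA_1, 26.9 in PA_3 and between 35.6 and 37.8 in IVF_1. Of 6 tested, 2 were higher (CRYBB1 and BFSP1) and 2 lower (MAF and PROX1) in PA_3 than in IVF_1, beside 52.1% of all tested genes called. MAF had 5.88 CPM in PA_3 and 18.4 in IVF_1. The 8 endoderm markers summed to between 6.11 and 6.51 CPM in PA_1, between 15.4 and 18.5 in IVF_1 and between 28.7 and 34.0 in PA_3. AFP among them had at most 1 read in every library, and FOXA2, a forkhead factor of endoderm and floor plate, stood at 21.7 ± 4.15 CPM in PA_3 against 4.06 ± 0.495 in PA_1 and 4.82 ± 0.404 in IVF_1. FOXA2 thus made up most of the sum in PA_3. Of the 7 tested markers 2 were higher and 2 lower in PA_3 than in IVF_1, with a median of -0.38. These 4 of 7 lie near the 52.1% called among all tested genes. In PA_1 against PA_3, 0 of the 7 were higher and 5 lower, with a median of -2.40. Of all tested genes, 17.8% were called higher and 19.0% lower in that comparison. The part of these markers in the levels of the eye-field factors was not tested.

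The fibroblast and surface ectoderm lists summed lowest in PA_3, as PAX6, LHX2 and SIX6 did, and their part in the result was not tested. The 10 fibroblast markers summed to between 65.2 and 70.4 CPM in PA_3, between 74.8 and 80.1 in PA_1 and between 97.6 and 100.3 in IVF_1, with COL1A1, a fibroblast collagen, called in no comparison. The 8 surface ectoderm markers summed to between 183 and 189 CPM in PA_3, between 265 and 287 in PA_1 and between 410 and 416 in IVF_1, where TP63 had at most 1 read in every library and TFAP2A had 0.856 CPM in IVF_1, 0.162 in PA_3 and 0.150 in PA_1. EPCAM and KRT14 made up most of these sums, at 131 and 48.9 CPM in PA_3. In PA_3 against IVF_1, 1 of 5 tested surface ectoderm markers was higher (KRT5) and 3 lower. Of 7 tested fibroblast markers, 1 was higher (THY1) and 4 lower. The 8 mesoderm markers summed to between 10.2 and 20.6 CPM over all libraries, and TBXT had 0, 1 and 12 reads over PA_1, PA_3 and IVF_1. The 8 pluripotency markers summed to between 2690 and 2726 CPM in PA_1, between 2815 and 2913 in PA_3 and between 4456 and 4535 in IVF_1, with DNMT3B alone at 1577, 1582 and 3135 CPM. Of these 8, 5 were lower and 1 higher in PA_3 than in IVF_1, beside 52.1% of all tested genes called (25.9% higher and 26.2% lower). LIN28B, an RNA-binding protein, was at 36.0 CPM in PA_3, 77.4 in IVF_1 and 78.1 in PA_1.

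Genes next to the eye-field factors were read to see whether whole neighbourhoods moved. Within 500 kb of the 4 genes lie 40 other genes of the table, 26 of them tested, and PA_1 exceeded PA_3 at 9 and was below it at 2 (median log2 fold change 0.24). These 11 of 26 lie near the 36.8% called among all tested genes. By direction they leaned toward PA_1, as 17.8% of all tested genes were called higher and 19.0% lower. That total of 11 was 7 without PA_3 replicate 1, 6 without PA_3 replicate 2 and 7 when IVF_1 was left out of the fit. Around PAX6, the 6 tested neighbours lay between -0.19 and 0.55, against 7.89 for PAX6. ELP4, an Elongator subunit gene that ends 3.8 kb from PAX6 on the opposite strand and whose introns hold PAX6 enhancers in human, was at 31.2, 23.3 and 21.4 CPM in PA_1, IVF_1 and PA_3 (0.55 for PA_1 against PA_3, SE 0.11, edgeR adjusted p = 0.00072). RCN1, a calcium-binding protein gene on the other side, was lower in PA_1 than in PA_3 (-0.19, SE 0.065, adjusted p = 0.03).

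Around LHX2, the 6 tested neighbours lay between -0.34 and 0.69, with DENND1A, an endocytic gene 76.4 kb away, at 0.09 (adjusted p = 0.36) and NEK6, a mitotic kinase gene, at -0.34 (adjusted p = 0.0017). Around SIX6, the 10 tested neighbours lay between 0.01 and 2.13, with 5 called higher in PA_1 than in PA_3 and 0 lower. Among them, DHRS7 was at 0.78 (SE 0.13, adjusted p = 0.00021) and MNAT1 at 0.17 (adjusted p = 0.22). C14orf39, also called SIX6OS1 in human, starts 26.3 kb from the start of SIX6 and was at 2.13 (SE 0.73) for PA_1 against PA_3. It rested on 16 and 10 reads in PA_1, 3 and 6 in IVF_1, and 0 and 6 in PA_3. It passed the filter through the PA_1 libraries, so its value is a description.

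SIX3 has a neighbour whose level moved with it, chosen here after its values were seen. ENSSSCG00000041282, a long noncoding RNA gene without a symbol, starts 0.1 kb from the start of SIX3 and runs on the opposite strand. It had 4954 and 2656 reads in PA_1, 1675 and 1574 in IVF_1, and 1574 and 1545 in PA_3. Its log2 fold changes were 1.33 (SE 0.083) for PA_1 against PA_3, -0.71 (SE 0.084) for PA_3 against IVF_1 and 0.62 (SE 0.082) for PA_1 against IVF_1, beside 1.19, -0.54 and 0.65 for SIX3. The spans of the 2 genes do not overlap in the table, and whether the authors' counting used the strand is not given in the sources used here. SIX2, 57.3 kb from SIX3, was at 0.63 for PA_1 against PA_3 (adjusted p = 0.38), and CAMKMT at -0.19 (adjusted p = 0.13).

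**Figure D3:**
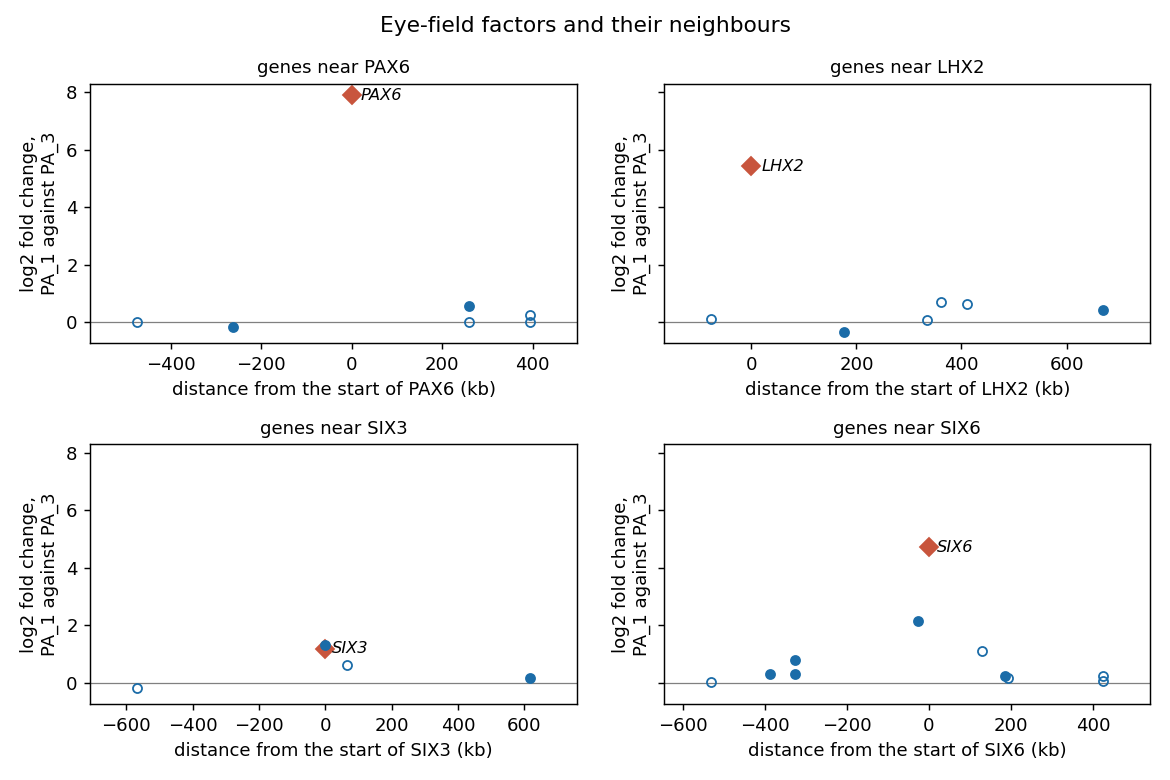
Log2 fold change for PA_1 against PA_3 of each eye-field factor (red diamond, no test) and of the tested genes within 500 kb, against the distance between gene starts in kb, negative upstream of the factor. Filled circles passed the adjusted p threshold. PAX6 and LHX2 stand at 7.89 and 5.42 with no neighbour above 0.69, and the noncoding RNA gene at SIX3 lies on the SIX3 point.

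SIX3 and SIX6 are paralogs with similar homeodomains, and how the counting treated reads that match both is not given in the sources used here. In PA_3, SIX3 had 1143 and 1155 reads and SIX6 had 4 and 7, which bounds the SIX3 reads that can have been counted as SIX6 there. No other gene of the table overlaps the span of PAX6, LHX2, SIX3 or SIX6.

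The genes whose pattern over the 6 libraries was most like each eye-field factor were found by the root mean square difference of log2(CPM + 1) after subtracting the mean of each gene. The low libraries of a gene mostly belong to 1 line, PA_3, so likeness is a description and carries no test. For PAX6 the closest were LDHB, a lactate dehydrogenase subunit (difference 0.534), TRIM4, a ubiquitin ligase gene (0.553), INPP5D, an inositol phosphatase gene (0.731), MMRN1 (0.744) and LHX2 (0.748). LHX2 was thus among the 5 genes closest to PAX6, and PAX6 was number 20 for LHX2, but LHX2 was not among the 5 with a pseudocount of 0.1. On this scale PAX6 lay farther below its own mean in PA_3 than these 5 genes did, but the added 1 limits the fall of genes of low level. The fitted log2 fold changes for PA_3 against IVF_1 were -11.78 for TRIM4 and -7.62 for INPP5D, beside -7.28 for PAX6. They were -5.09 for LHX2, -4.83 for MMRN1 and -4.17 for LDHB. LDHB kept 6.22 ± 1.55 CPM in PA_3 against 205 ± 8.12 in PA_1, and TRIM4 had no read in PA_3 against 21.5 ± 1.20 CPM in PA_1.

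For LHX2 the closest was PRTG, which encodes protogenin, a receptor of the early neural tube, with a difference of 0.147, though it was not among the 5 closest with a pseudocount of 0.1. PRTG had 60.7 ± 0.977 CPM in PA_1, 51.3 ± 3.29 in IVF_1 and 2.695 ± 0.0121 in PA_3. MMRN1, TRIM4, FMN2 and LDHB came next, with differences from 0.288 to 0.333. For SIX6 the closest were NPHS1, PCDHAC2, TUB, PAX2 and CRABP1, a retinoic acid binding protein gene, with differences from 0.127 to 0.171.

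SIX3 had much closer neighbours in pattern than the other 3, as its range is smaller. The closest were ARRDC3, an arrestin-domain gene (0.0276), IRS4, an insulin receptor substrate gene (0.0664), MTSS1 (0.0687), LTBP1, which encodes a TGF-beta binding protein (0.0691), and TBX22 (0.0787). ARRDC3 stood at 69.1 ± 2.48 CPM in PA_1, 43.6 ± 1.12 in IVF_1 and 29.5 ± 2.54 in PA_3. Of these 20 places, 9 kept the same gene with a pseudocount of 0.1, among them ARRDC3, IRS4, MTSS1 and LTBP1 for SIX3.

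**Figure D4:**
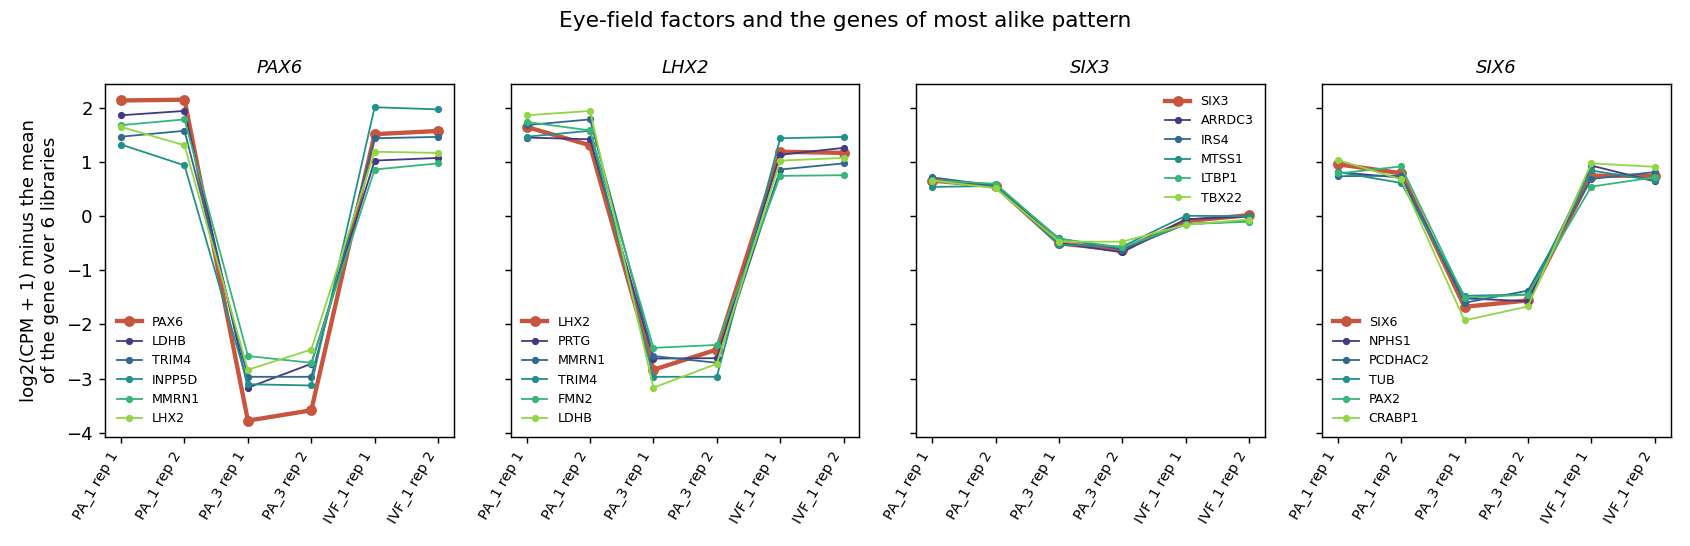
Log2(CPM + 1) minus the mean of the gene over 6 libraries, for each eye-field factor (thick red line) and the 5 genes of smallest root mean square difference from it. On this scale PAX6 drops farther in PA_3 than the 5 genes shown with it. The added 1 limits the fall of genes of low level. The SIX3 panel shows a smaller step down to PA_3.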

How the data were processed

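Poly(A) RNA from 6 libraries of 3 pig embryonic stem cell lines was sequenced as stranded paired-end reads, per the labels' protocols. Reads were trimmed with cutadapt 2.8 and aligned with STAR 2.7.1a to Sscrofa11.1, per the submitters' processing notes. The sources used here do not name the counter, annotation release or strand setting. The authors deposited read counts per gene, RPKM and TPM in 1 table. Its 54 further per-sample columns were not used. The deposited TPM served to compare genes per length and to check levels. The deposited RPKM was read only for its sum per library.

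Counts were tested with edgeR 4.0.16 (R 4.3.3; TMM, filterByExpr by line, robust glmQLFit, glmQLFTest, two-sided) on 6 libraries together, with 3 residual degrees of freedom and a biological coefficient of variation of 6.11%. Benjamini-Hochberg adjustment ran over 15197 genes with a threshold of 0.05. Each SE is the log2 fold change over the root of F. The smallest exact permutation p between lines of 2 libraries each is 0.333. Alternatives were DESeq2 1.42.0, limma 3.58.1 voom, upper-quartile scaling, no filter, only the lines compared, no mitochondrial genes, a replicate block, each library left out, other distances and a pseudocount of 0.1.

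No test of the 4 genes themselves is given, because both PA_1 and PA_3 entered their choice. PAX2, NR2F1, FABP7, LIX1 and C14orf39 lay under the filter cutoff in PA_3 and are given without a p. They remain in the counts of called genes. The 4 genes, the 6 gene lists and the 7 marker lists were chosen with earlier results of these data known. From each list the text names up to 5 genes of smallest adjusted p in any comparison with at least 1 CPM in a line, plus RAX, OTX2, SIX2, SIX4 and others, and some genes that this rule names are not reported here. Of the list genes, 3 were not matched by symbol and are not analysed here.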

Additional observations from a re-analysis of the deposited data

How the results depend on the processing

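The log2 differences of the 4 genes kept their sign under every alternative run. SIX3 in PA_3 moved to 35.8% of PA_1 and 57.2% of IVF_1 with the authors' TPM, whose divisor, the RPKM sum, was 679278 and 685589 in PA_3 and 574377 to 582246 elsewhere. The balance of calls over all genes depended on the scaling: with upper-quartile scaling the calls upward and downward were 2714 and 2027 for PA_1 against IVF_1 (not 2326 and 2440), 4648 and 3158 for PA_3 against IVF_1 (not 3937 and 3983), and 2310 and 3251 for PA_1 against PA_3 (not 2712 and 2883). DESeq2 called 1 optic vesicle gene, not 6, and 5 forebrain genes, not 10, between PA_1 and IVF_1. Of the genes near the eye-field factors, 7 were called with only the lines compared, 6 within 250 kb and 19 within 1000 kb, not 11. The cause was not tested for DESeq2, and the distances change how many genes are tested.

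With each library left out in turn, genes called ranged from 2307 to 5812 for PA_1 against IVF_1 (2307 without IVF_1 replicate 1, 2745 without IVF_1 replicate 2) and from 3406 to 6496 for PA_1 against PA_3 (3406 without PA_3 replicate 2). For PA_1 against IVF_1 the range was 1 to 6 eye-field partners, 2 to 6 optic vesicle genes, 4 to 10 forebrain genes, 6 to 14 cofactors and 12 to 19 signals. For PA_1 against PA_3 it was 5 to 8 eye-field partners, 9 to 15 neural plate genes and 6 to 13 nearby genes.

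Replicate numbers did not pair the libraries: correlations of deviations were -0.136, 0.0857 and -0.08. With the replicate block the calls between PA_1 and IVF_1 numbered 4677, and the log2 differences were 0.61 for PAX6, 0.65 for SIX3, 0.32 for LHX2 and 0.16 for SIX6. The block called 9 nearby genes and changed no other count by over 1.5 times. In PA_3, the 15 reads of PAX6, 32 of LHX2 and 11 of SIX6 limit how precisely their remaining levels are known.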
